A study of Homo sapiens with 6 samples.

Results

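Krüppel-like factors (KLF proteins) are transcription factors that bind GC-rich and CACCC-type DNA through zinc fingers at their carboxyl end. Their amino-terminal parts differ, and the family is commonly divided by partner proteins into KLFs that mostly activate, KLFs that recruit the co-repressor CtBP, and KLFs that recruit the co-repressor SIN3A. Several KLF genes respond quickly to serum, cytokines, shear stress or hormones, and in fibroblasts and tumour cells they bear on proliferation, differentiation and inflammatory gene expression.

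The 10 KLF genes described here, KLF2, KLF3, KLF4, KLF5, KLF6, KLF7, KLF9, KLF10, KLF11 and KLF13, were taken by symbol from a table of 17187 genes, and all 10 were found there. The samples were HT-1080 cells, an established human fibrosarcoma line obtained from ATCC and described as wild-type. The IFNg group holds 3 libraries of cells exposed for 8 h to 10 ng/ml of recombinant interferon gamma (IFNg), a cytokine of activated T and natural killer cells. The control group holds 3 libraries of cells that received PBS. The labels do not name separate cultures, so p-values measure the spread between these libraries, which may be technical. Levels are given as normalised read counts, which are reads divided by 1 size factor per library and not by gene length. All 10 genes passed the filter on low values, and their reads ranged from 52 (KLF4, control 1) to 23464 (KLF6, control 2) per library.

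Depth was 59556948 to 74586440 reads in the IFNg libraries and 65639349 to 83501954 reads in the control libraries. As a check of the treatment, the interferon response gene IRF1 rose by a log2 difference of 5.62 ± 0.26 and GBP2 by 5.64 ± 0.11 (SE; limma adjusted p up to 3.7e-08). The libraries numbered 3 of both groups stood apart from the other 4 on the second principal component, which held 17.3% of the variance, so the difference of each of the 10 KLF genes is also given without them. The mesenchymal marker VIM averaged 369946 ± 48203 in IFNg and 380457 ± 44482 in control libraries (SD, n = 3 each), and 0 of 8 mesenchymal markers were called. Of the same list, COL1A1 averaged only 194 in IFNg and 322 in control, and S100A4 only 35.0 and 63.6. The leukocyte marker PTPRC reached at most 44.6 in any library, and CD3D at most 50.1. The epithelial marker KRT8 averaged 19916 in IFNg and 16193 in control, while KRT19 reached at most 26.9. The macrophage marker CD68 averaged 12176 in IFNg and 13349 in control, while CD14 reached at most 28.9. Of 4 endothelial markers fitted, 1 rose, where 3.27% of all genes fitted were called higher. This was KDR, which had 137, 122 and 104 in IFNg, against 16.1, 10.9 and 5.84 in control. CDH5, the defining endothelial cadherin gene, was at 0 in all 3 IFNg libraries and reached at most 7.79 in control. The other 3 endothelial markers fitted were not called. TEK averaged 41.9 in IFNg and 50.2 in control, VWF 2.86 and 9.41, and PECAM1 29.5 and 19.9. The summed endothelial list, which includes KDR, was 147 to 221 in IFNg and 72.0 to 109 in control. The part of these markers in the KLF results was not tested.

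IFNg was followed by a rise of 1 KLF gene and a fall of another, while the remaining 8 did not pass the test. KLF4 rose about 5.50-fold from a low level, and KLF9 fell, with a control mean 1.55 times the IFNg mean. The test was limma on log2(value + 1), fitted over 15546 genes with Benjamini-Hochberg adjustment at 0.05. Over all genes fitted, 3.27% were called higher and 1.05% lower. The count of 1 of 10 KLF genes lies above that background in each direction but rests on a single gene each time. The log2 differences of the 10 genes had a median of -0.00052, against -0.01 over all genes. Between IFNg and control libraries, 1 KLF gene did not overlap in the higher direction and 1 in the lower direction, where 10.7% and 9.28% of all genes fitted did so. In bulk RNA, fewer expressing cells and less RNA per cell cannot be told apart.

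**Figure D1:**
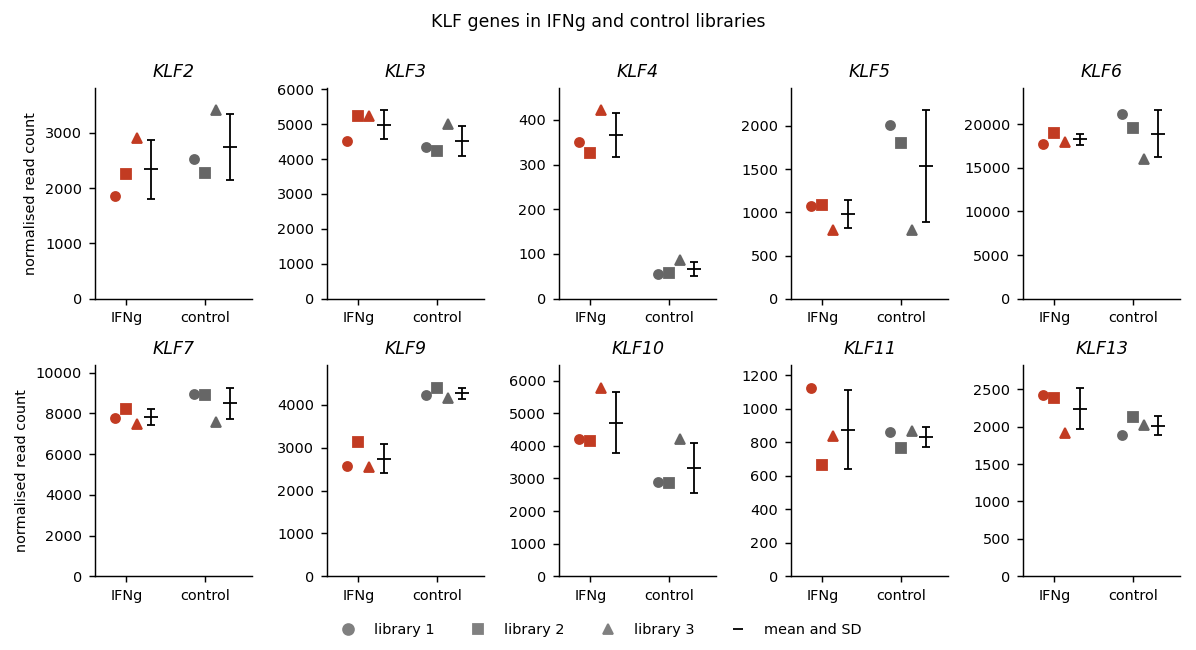
Normalised read counts (y axes start at 0) of the 10 KLF genes in single libraries, IFNg in red and control in grey, with library numbers as symbols and the mean and SD of 3 libraries beside them. The IFNg libraries lie between 326 and 422 for KLF4, all above the control libraries, and between 2539 and 3132 for KLF9, all below them.

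The promoter windows of the genes that rose and fell are shown because KLF and SP proteins themselves bind GC boxes, and the pair differed sharply in base composition. Sequences are RefSeq windows of 300 bases on GRCh38.p14, from 250 bases before to 50 bases after the annotated start site, 5′ to 3′ on the gene's strand, with GC boxes (GGGCGG, either strand) and CACCC boxes (CACCC, either strand) in capitals. KLF4 lies at chr9:107489720-107490019 and KLF9 at chr9:70414608-70414907, both on the minus strand.
KLF4: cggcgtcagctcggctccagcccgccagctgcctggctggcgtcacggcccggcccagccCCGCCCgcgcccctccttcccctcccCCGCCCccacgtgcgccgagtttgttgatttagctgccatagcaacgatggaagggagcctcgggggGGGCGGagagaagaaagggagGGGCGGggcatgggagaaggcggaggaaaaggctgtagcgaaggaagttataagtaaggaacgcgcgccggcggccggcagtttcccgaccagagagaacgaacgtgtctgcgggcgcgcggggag
KLF9: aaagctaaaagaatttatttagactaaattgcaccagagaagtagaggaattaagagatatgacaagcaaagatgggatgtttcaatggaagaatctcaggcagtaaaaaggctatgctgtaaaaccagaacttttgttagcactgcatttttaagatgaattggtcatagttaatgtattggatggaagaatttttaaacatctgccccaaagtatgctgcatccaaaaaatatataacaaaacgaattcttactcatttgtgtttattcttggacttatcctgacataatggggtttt

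The KLF4 window was 69.0% G and C with 4 GC boxes and no CACCC box, and the KLF9 window was 32.7% G and C with neither motif. Over all windows in the table the median was 58.7% G and C. Genes that were not called also lay on both sides of it. The KLF2 window was 80.7% and the KLF13 window 78.3% G and C, while the KLF5 windows were 40.7% and 71.3%. A link between base composition and direction of change was not tested. Windows of 8 of the 10 genes were searched, 13 in all because some genes have several start sites. KLF3 had no window. Windows on chromosome 8, where KLF10 lies, were left out of the 13, so nothing is shown for KLF10. The shares over all windows have no such exclusion. A GC box stood in 8 of these 13 windows, belonging to 7 genes, and in 45.0% of 35116 RefSeq windows. A CACCC box stood in 7 of the 13 windows, belonging to 4 genes, and in 59.9% of all windows. The interferon gamma activated site, or GAS motif (TTCNNNGAA, which reads alike on both strands) stood in 1 of the 13 windows, a KLF7 start site, and in 7.66% of all windows. The core of the interferon-stimulated response element (a pair of GAAA half-sites 2 bases apart, either strand) stood in 0 of the 13 and in 3.57% of all windows. The motifs were searched separately, so a base can belong to more than one, and a match is a match of letters only.

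Among the KLFs that mostly activate, KLF4 is a zinc-finger factor of epithelia, vessels and macrophages and among the factors used to reprogram fibroblasts to pluripotency. KLF4 had 350.3, 326 and 422 in IFNg libraries 1, 2 and 3, against 55.7, 58.5 and 85.7 in control libraries. All IFNg values lay far above all control values, and the libraries numbered 3 were the highest of each group. The KLF4 means were 366 ± 49.5 in IFNg and 66.6 ± 16.6 in control (SD, n = 3 each). The log2 difference was 2.46 ± 0.32 (SE; 95% confidence interval 1.76 to 3.16; limma adjusted p = 0.000543), a size that 1.44% of all genes reached or passed upward. These values rested on 377, 316 and 364 reads in IFNg and on 52, 70 and 88 reads in control, so counting alone gives a coefficient of variation of 13.9% in the library with the fewest. KLF4 passed without each library in turn, at 2.35 to 2.65 with limma adjusted p up to 0.00643. Without both libraries numbered 3 the KLF4 difference was 2.55 ± 0.40 (limma adjusted p = 0.000943), and between the libraries numbered 3 alone it was 2.29.

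KLF2, a factor of quiescent endothelium and of naive T cells, did not pass. It had 1854, 2248 and 2911 in IFNg libraries, against 2530.3, 2276 and 3408 in control libraries. The groups overlapped, and library 3 was the highest in each. KLF2 had a log2 difference of -0.23 ± 0.18 (95% interval -0.63 to 0.17; limma adjusted p = 0.623), so the interval leaves out a rise of the size seen for KLF4. Leaving out 1 library moved it between -0.40 (without IFNg 3) and -0.06 (without control 3), and without both libraries numbered 3 it was -0.23 ± 0.13, none of them called.

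KLF5 promotes proliferation in intestinal epithelium and vascular smooth muscle. It had 1069, 1086 and 793 in IFNg, against 2009, 1799.8 and 796 in control. Control 3 lay with the IFNg libraries and far below the other 2 controls, so the groups overlapped in that library alone. The log2 difference of KLF5 was -0.55 ± 0.29 (limma adjusted p = 0.428), with a control coefficient of variation of 42.2%. Without control 1 it was -0.30 and did not pass, whereas without control 3 KLF5 passed at -0.97 (limma adjusted p = 0.00379). Without both libraries numbered 3 it passed at -0.82 ± 0.14 (adjusted p = 0.00237), while between the libraries numbered 3 alone the difference was -0.0049.

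KLF6, a broadly expressed factor that is induced on tissue injury and is known as a tumour suppressor, was the most abundant of the 10. It had 17775, 18969 and 18010.3 in IFNg, against 21204, 19596 and 15977 in control. The control libraries spread on both sides of the IFNg libraries. KLF6 had a log2 difference of -0.04 ± 0.11 (95% interval -0.28 to 0.19; limma adjusted p = 0.91). With both libraries numbered 3 left out, KLF6 was at -0.15 ± 0.07 (limma adjusted p = 0.268). KLF7, known for its part in neuronal differentiation, had 7785, 8220.2 and 7458 in IFNg, against 8963, 8912 and 7595 in control. Control 3 was again the low control and lay within the IFNg range, and the KLF7 difference was -0.12 ± 0.10 (95% interval -0.33 to 0.10; limma adjusted p = 0.648). It moved between -0.19 (without control 3) and -0.07 (without control 1) when 1 library was left out, and was -0.16 ± 0.08 without both libraries numbered 3, none of them called.

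KLF3 recruits CtBP and represses transcription, in mice among others in red blood cell and fat cell development. It had 4508, 5219 and 5229 in IFNg, against 4336, 4217 and 5015 in control. IFNg 1 lay within the control range. KLF3 had a log2 difference of 0.14 ± 0.11 (95% interval -0.10 to 0.38; limma adjusted p = 0.613). It moved between 0.09 (without control 2) and 0.22 (without control 3) when 1 library was left out, and was 0.18 ± 0.10 without both libraries numbered 3, none of them called. An antisense gene lies across KLF3 and another across KLF11 in GENCODE 29, and since the use of strand in counting is not given in the sources used here, their reads cannot be told apart from those of KLF3 and KLF11.

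Among the KLFs that recruit SIN3A, KLF9 is a target of glucocorticoid and thyroid hormone receptors. It had 2569.9, 3132 and 2539 in IFNg, against 4242, 4401 and 4163 in control. The control libraries were tightly grouped, with a coefficient of variation of 2.84%, and every IFNg library was below every control library. The KLF9 means were 2747 ± 334 in IFNg and 4269 ± 121 in control (SD, n = 3 each). The log2 difference was -0.64 ± 0.11 (SE; 95% interval -0.89 to -0.40; limma adjusted p = 0.00527), a size that 8.34% of all genes reached or passed downward. KLF9 passed without each library in turn (adjusted p up to 0.0453), and of the 18 alternatives it missed the threshold only with a variance model that has no intensity trend (limma adjusted p = 0.0808). Without both libraries numbered 3 the difference was -0.61 ± 0.12 (limma adjusted p = 0.0041), and between those libraries alone it was -0.71.

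KLF10 was first described as a gene induced early by TGF-beta. It had 4204, 4155 and 5785 in IFNg, against 2882, 2865 and 4222 in control. Library 3 was the highest in each group, and control 3 exceeded IFNg 1 and IFNg 2 narrowly, so the groups overlapped. The log2 difference of KLF10 was 0.51 ± 0.17 (95% interval 0.14 to 0.88), which had an unadjusted p of 0.0109 and did not pass over all genes (limma adjusted p = 0.142). Without both libraries numbered 3, KLF10 passed at 0.54 ± 0.10 (limma adjusted p = 0.00351). Without control 3 alone it passed at 0.70 (adjusted p = 0.00798), and between the libraries numbered 3 the difference was 0.45. Without those 2 libraries, 2 of the 10 KLF genes were called higher (KLF4 and KLF10) and 2 lower (KLF5 and KLF9), where 5.67% and 3.85% of all genes were called.

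KLF11, the near relative of KLF10 that is also induced by TGF-beta, had 1125, 662 and 838 in IFNg, against 861, 764 and 869 in control. IFNg 1 was the highest and IFNg 2 the lowest of all 6 libraries. KLF11 had a log2 difference of 0.04 ± 0.20 (95% interval -0.40 to 0.48; limma adjusted p = 0.958), and one of 0.09 ± 0.24 without both libraries numbered 3 (adjusted p = 0.879). KLF13, which in T cells regulates the chemokine gene CCL5, had 2423, 2379 and 1921 in IFNg, against 1888, 2135 and 2015 in control. IFNg 3 fell within the control range while the other IFNg libraries lay above it. The KLF13 difference was 0.15 ± 0.13 (95% interval -0.13 to 0.43; limma adjusted p = 0.662). It was 0.26 ± 0.12 without IFNg 3 and 0.09 ± 0.15 without IFNg 1, and without both libraries numbered 3 it was 0.26 ± 0.12 (limma adjusted p = 0.255), none of them called.

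**Figure D2:**
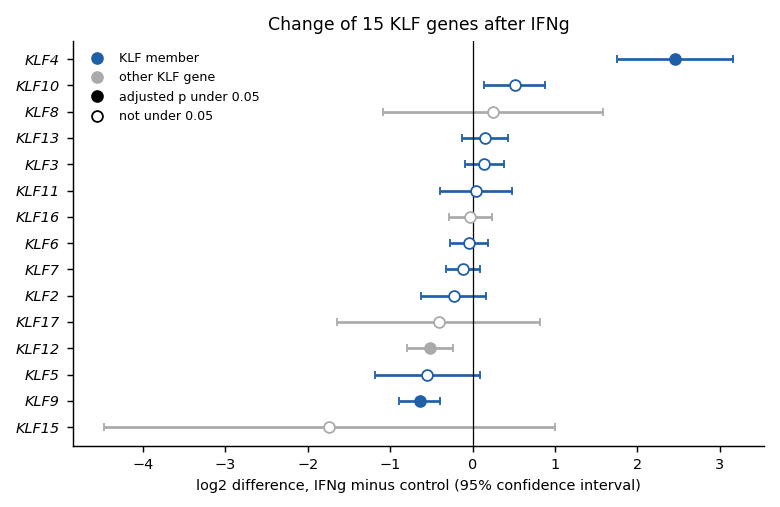
Log2 difference, IFNg minus control (x axis), with its 95% confidence interval for 15 fitted KLF genes, the 10 described here in blue and 5 others in grey; filled points had a limma adjusted p under 0.05. KLF4 stands at 2.46, KLF9 at -0.64 and KLF12 at -0.52, and the interval of KLF10, 0.14 to 0.88, lies above 0 although its adjusted p was 0.142.

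Levels per exon length put KLF4 last among the 10 genes in both groups. Lengths are merged exons of GENCODE 29, so the levels assume that all exons are used. KLF6 led with 2973 ± 103 normalised reads per kb in IFNg and 3083 ± 436 in control (SD, n = 3 each). In IFNg, KLF10 (1178 ± 232) and KLF2 (1159 ± 265) came next and overlapped over libraries. KLF7 (844 ± 41.3) and KLF3 (792 ± 65.6) followed and overlapped, and KLF9 (531 ± 64.5) stood apart below them. KLF5 (252 ± 42.2), KLF13 (238 ± 29.6) and KLF11 (191 ± 50.9) overlapped from one to the next, and KLF4 was lowest at 100.1 ± 13.5.
In control, KLF2 (1357 ± 294) followed KLF6. KLF7 (917 ± 83.7), KLF10 (830.1 ± 195) and KLF9 (825 ± 23.4) overlapped from one to the next. KLF3 (718 ± 68.4), KLF5 (394 ± 166), KLF13 (214 ± 13.1) and KLF11 (181 ± 12.7) came after, with only KLF5 and KLF13 overlapping among them. The highest control library of KLF3 (796) lay above the lowest of KLF10 (716), so those genes overlapped too. KLF4 was lowest at 18.2 ± 4.52, and even after IFNg its highest library (115) stayed under the lowest IFNg library of KLF11 (144).

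**Figure D3:**
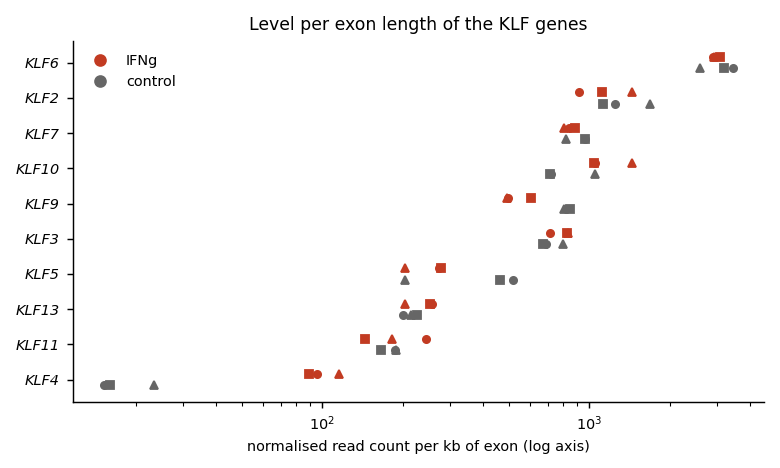
Normalised read count per kb of merged exon in each library (x axis, log scale) for the 10 KLF genes, IFNg (red) above control (grey), ordered by the control mean. KLF6 has the highest mean, 2973 in IFNg and 3083 in control, and KLF4 has the lowest level in both, at 100.1 in IFNg and 18.2 in control.

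The sum over the 10 genes differed little between groups. The summed normalised read count was 43664, 46396 and 45905 in IFNg, against 48970.4, 47023 and 44146 in control. The groups overlapped, and KLF6 alone made up 39.2% to 40.9% of the sum in IFNg and 36.2% to 43.3% in control.

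**Figure D4:**
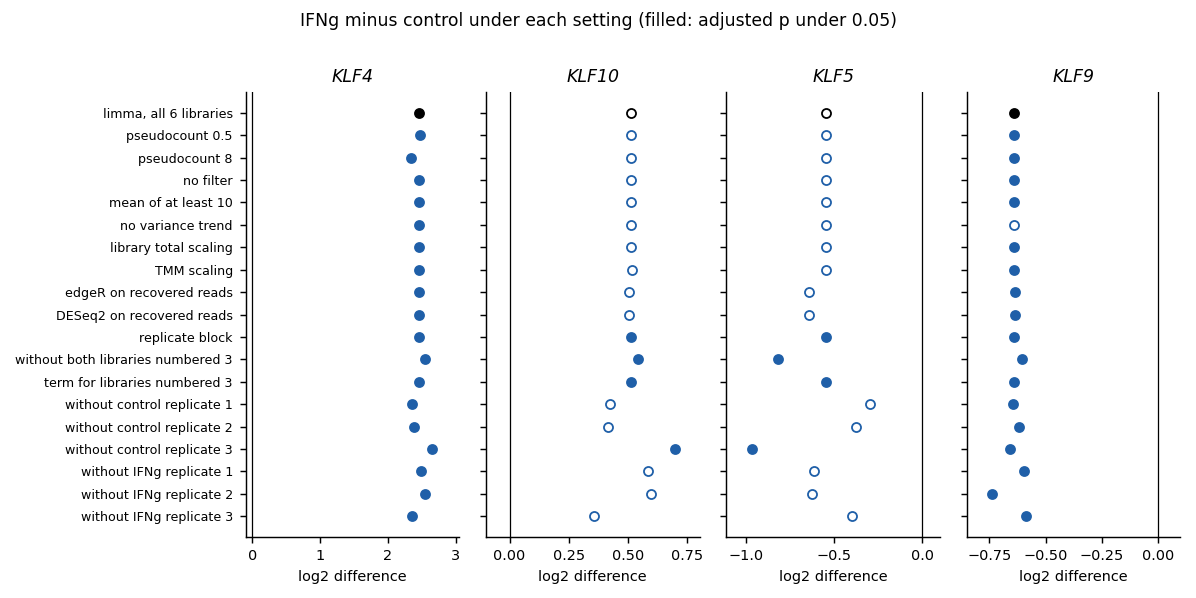
Log2 difference, IFNg minus control (x axis, a separate scale for each gene), of KLF4, KLF10, KLF5 and KLF9 under limma with all 6 libraries (black) and 18 alternatives (blue); filled points had an adjusted p under 0.05. KLF4 is filled in all 18 alternatives and KLF9 in 17, whereas KLF10 and KLF5 are filled in 4 each, namely with the replicate block, with a term for the libraries numbered 3, without both of them and without control 3.

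The genes whose pattern over the 6 libraries was closest to KLF4 were SAMHD1, a dNTP-degrading antiviral enzyme, PRRT2 and FAM167B. Closeness was the root mean square distance between log2 deviations from the control mean, searched over 12416 genes, and was 0.14, 0.18 and 0.20. SAMHD1 averaged 5988 ± 1044 in IFNg and 1097 ± 102 in control (SD, n = 3 each). For KLF9 the closest were IRS2, an adaptor of the insulin receptor (0.05), MAPKBP1 (0.08) and USP54 (0.08). IRS2 averaged 1389 ± 153 in IFNg and 2176 ± 136 in control (SD, n = 3 each).

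Of the other KLF genes, 6 were in the table and 5 were fitted. Of these 5, 0 rose and 1 fell, where 3.27% of all genes fitted were called higher and 1.05% lower. The gene that fell was KLF12, a CtBP-recruiting repressor of the gene for AP-2 alpha. It had 4413, 4466 and 3341 in IFNg, against 6399.6, 5758 and 5228 in control, with no overlap. The log2 difference of KLF12 was -0.52 ± 0.13 (limma adjusted p = 0.0458), a call lost without any single library except control 3 (adjusted p of 0.0713 to 0.188). KLF12 passed at -0.45 ± 0.09 without both libraries numbered 3 (limma adjusted p = 0.00757). KLF16 (-0.03), KLF8 (0.25), KLF17 (-0.41) and KLF15 (-1.74) did not pass, and the last 3 rested on under 100 reads in every library. The SP genes, whose products share the zinc fingers and GC-box binding of the KLFs, had 0 of 5 fitted members called. SP1 was 14269 ± 995 in IFNg and 13379 ± 405 in control, and SP3 was 10250.2 ± 500.0 in IFNg and 9490.4 ± 469 in control (SD, n = 3 each). Their log2 differences were 0.09 and 0.11.

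Partner and pathway genes were described by lists written from general knowledge. Beside their counts, 3.27% of all genes fitted were called higher and 1.05% lower. Of 10 co-repressors, 1 rose and 0 fell (median 0.08). The gene that rose was HDAC1, a histone deacetylase of the SIN3 complex, with 13078 ± 764 in IFNg and 8623 ± 1091 in control (SD, n = 3 each; log2 difference 0.61 ± 0.10; limma adjusted p = 0.00471). Of 9 co-activators and modifiers, 0 rose and 1 fell (median -0.07). That gene was SMURF2, a ubiquitin ligase, at -0.57 ± 0.14 (limma adjusted p = 0.0365), a call lost without any single library except control 3 (up to 0.175). Of 15 upstream regulators, 0 rose and 1 fell (median -0.11). MEF2D, a factor of the ERK5 and MEF2 route to KLF2 and KLF4, was at -0.46 ± 0.09 (limma adjusted p = 0.0122), lost without control 2 (0.0829) or IFNg 2 (0.0707).

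Of 18 genes reported as KLF targets in other cell types, 2 rose and 1 fell (median 0.02). For this list and the next, the shares over all genes fitted were 3.27% higher and 1.05% lower. CCND1, which encodes cyclin D1, rose by 0.59 ± 0.09 (limma adjusted p = 0.00275), and ODC1, the first enzyme of polyamine synthesis, fell by 0.78 on the log2 scale (adjusted p = 0.000358). PDGFRA, a growth factor receptor gene, had 74 reads in IFNg and 0 in control, which is at least 24.1-fold higher on a floor of 3 reads over the control group. Its call (limma adjusted p = 0.017) was lost without any IFNg library (adjusted p of 0.0608 to 0.122). Of 17 immediate early genes, 1 rose and 3 fell (median -0.19). ATF3 rose (1.52 ± 0.21; limma adjusted p = 0.000955), and IER3 (-0.60), MYC (-0.93) and CTGF (-1.09) fell. MYC and CTGF lost their calls without any single library except control 3, and IER3 without control 1, control 2 or IFNg 3 (limma adjusted p up to 0.186).

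**Figure D5:**
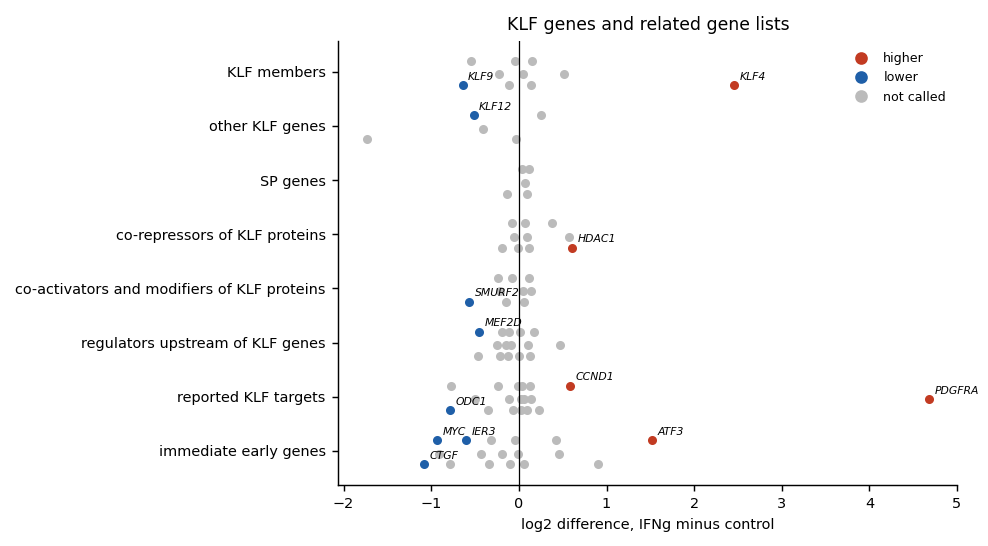
Log2 difference, IFNg minus control (x axis), of the 10 KLF genes and of the fitted genes of 7 related lists, with genes called higher in red, called lower in blue and others in grey. KLF4 at 2.46 lies outside the span of the other KLF genes; the point of PDGFRA depends on the pseudocount because it had 0 control reads.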

How the data were processed

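Total RNA depleted of ribosomal RNA was sequenced from 6 libraries, per the labels' protocols. FastQC 0.11.3, TopHat2 2.0.13, Cufflinks, Cuffdiff 2.2.1, hg19 and GRCh37 appear in the submitters' processing notes without their roles. The deposited signal is named RPKM, but 100% of positive values in each library were whole multiples of 1 step (tolerance 0.001 reads). The signal is therefore a read count divided by a size factor, and the reads were recovered from it. How the authors counted reads and scaled libraries is not given in the sources used here. In all 6 libraries the size factor equalled the median ratio of the recovered reads to each gene's geometric mean (0.934 for control 1 both ways). Libraries of a group differed by more than sampling noise, with chi-square over degrees of freedom between 15.8 and 115.

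limma 3.58.1 in R 4.3.3 was fitted 2-sided to log2(value + 1) with a variance trend, for the 15546 genes that reached 0.5 in 3 or more libraries. Log2 differences understate the change of low genes. edgeR 4.0.16 and DESeq2 1.42.0 on the recovered reads were alternatives. The fits were also run on simulated counts that had the same dispersion for every gene and no split of the libraries numbered 3. That run cannot show how the fits perform on the spread of these libraries. The members, gene lists and tests were chosen with earlier results of these data known. Every listed KLF gene is described, with up to 4 called genes per list and the 3 nearest genes (mean of at least 50) per called KLF gene. Confidence intervals of log2 differences are limma's and reflect the spread between libraries, while the counting coefficient of variation and floors of reads cover counting error only.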

Additional observations from a re-analysis of the deposited data

How the results depend on the processing

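Over 18 alternatives for each of the 10 KLF genes, 168 of 180 values kept both their direction and their side of the threshold. The changes of filter, the fit without a variance trend, the replicate block and the term for libraries numbered 3 left every difference unchanged. Direction could therefore not change in those settings, and the count of 168 includes them. Leaving out 1 library at a time, KLF6 ranged from -0.16 to 0.044, changing sign without control 1, and KLF11 from -0.16 to 0.23, changing sign without control 2 or IFNg 1, and neither was called; the cause was not tested. Without the variance trend 0 KLF genes were lower, 2 genes of the related lists higher and 1 lower (4 and 7 in the limma test with all libraries), and 279 genes were higher and 41 lower over the whole table (509 and 163). The list genes still called there were ATF3, PDGFRA and ODC1. Without both libraries numbered 3, 2 KLF genes were higher and 2 lower, 15 list genes lower, and 882 genes higher and 599 lower. With a term for these libraries, 2 KLF genes were higher and 2 lower, 7 list genes higher and 13 lower, and 966 genes higher and 573 lower. DESeq2 called 332 genes lower. Leaving out 1 library gave 1 to 2 KLF genes higher and 1 to 2 lower, 3 to 5 list genes higher and 1 to 12 lower, and 330 to 847 genes higher and 37 to 455 lower; the highest counts were without control 3.

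With the replicate number as a block, 2 KLF genes were higher and 2 lower, 13 list genes lower, and 915 genes higher and 549 lower. Deviations from the group means of same-numbered libraries correlated at 0.07, 0.14 and 0.30 for numbers 1, 2 and 3 over 12417 genes, so the numbers were not taken as pairs. IFNg 1 correlated best with control 2 (0.15), so not every library matched its own number. Depth limits KLF4 in control, and KLF8, KLF15 and KLF17 in all libraries.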

Other observations

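KLF15, which takes part in glucose and muscle metabolism, was picked out here after its values were seen. It had 49, 58 and 0 reads in IFNg libraries 1, 2 and 3, against 40, 59 and 48 reads in control libraries. The 0 in IFNg 3 allows up to 3 reads, well under the other 5 libraries. KLF14 had 5 reads in IFNg 1 and 0 in each of the other 5 libraries.

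Control 3 was the lowest control library for KLF5, as it was for MYC (4059, against 8347 and 7764 in controls 1 and 2) and for CTGF (28507, against 64164 and 62008). It was the highest control library for KLF2, KLF4 and KLF10. IFNg 3 was likewise the lowest IFNg library for KLF5 and the highest for KLF2, KLF4 and KLF10. Library 3 was also the lowest of both groups for KLF7 and KLF9, and the highest of both for KLF3.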
